A study of Mus musculus and Rattus norvegicus with 21 samples.

Results

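The genes described here are 8 genes for GTPase-activating proteins (GAPs) of the Rap and Ras families, namely Rap1gap, Rap1gap2, Dab2ip, Sipa1, Sipa1l1, Sipa1l2, Rasa1 and Rasa3, out of 21000 mouse protein-coding genes with a curated RefSeq transcript. The members were selected on measured values, since the many NKX2.1 and PAX8 peaks over Rap1gap and Dab2ip were the reason for choosing them, and their other 6 relatives were added by family. The peak counts of Rap1gap and Dab2ip are therefore given as a description, and nothing is tested with them. The series held 21 ChIP-seq samples, 13 immunoprecipitated and 8 input, from mouse thyroid glands and a rat thyrocyte line, and the 10 mouse immunoprecipitated libraries were used. NKX2.1 and PAX8 were each profiled in WT C57BL/6 thyroid glands from mice on a low iodine diet (LID, TD.95125), and the histone marks H3K4me3 and H3K27me3 in WT and Glis3-deficient (Glis3KO) thyroid glands from mice fed the LID or an NIH-31 normal diet (ND). All mouse groups were labelled as thyroid of C57BL/6 mice at 1 month of age. The Glis3KO groups carried the genotype label B6.Glis3<tm2(mCherry)Amj>, while the study's methods name another allele number for this line. For the factor libraries the methods give Glis3-EGFP mice, with a GLIS3-EGFP fusion protein, that were older than the label says, so factor peaks and histone marks may come from different mice. The methods also give a longer time on the LID for the factor libraries than for the histone libraries. Each combination of antibody, genotype and diet was 1 library, so no difference between libraries could be tested, and the labels do not say how many glands were pooled.

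Rap and Ras proteins are small GTPases that signal while they hold GTP. GAPs speed up the hydrolysis of that GTP and so switch the signal off, whereas guanine nucleotide exchange factors (GEFs) load new GTP and switch it on. In thyroid follicular cells the hormone TSH raises cAMP, which activates the exchange factor Epac1 (the Rapgef3 product) and through it Rap1. NKX2.1 and PAX8 are transcription factors that define this cell type. H3K4me3 is found at active promoters, and H3K27me3 is the mark of Polycomb repression.

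A window was the gene from its first to its last curated base plus 50 kb either side, in mm10 coordinates, and a peak belonged to a window if its midpoint lies in it. Start sites of a gene within 200 bp of each other were joined into a start region, numbered from the 5′ end of the gene, which gave 20 start regions for the 8 genes. A mark was called at a start region if a called region covered any base within 1 kb either side of the start site (the start window). The factor peaks were all 300 bp wide and the lists held no score, so a strong and a weak peak counted alike. Chromatin of whole glands was used, and fewer cells of a type cannot be told apart from less mark or binding per cell. The H3K27me3 list of Glis3KO-LID stood apart, with 18040 regions covering 55.11 Mb, against 2631 to 4116 regions covering 7.472 to 13.26 Mb in the other 3 libraries, so results that rest on it are given with and without it. The H3K4me3 lists were alike in length, with 15692 to 17044 regions, the fewest in Glis3KO-LID. Of 11 thyroid follicular cell markers, 9 to 11 carried H3K4me3 at a start site in each library. The mark was at 0 of 8 immune and 0 of 4 skeletal muscle markers in each library, but at 3 to 6 of 7 endothelial and 1 to 3 of 7 fibroblast markers, at 1 or 2 of 5 C cell, 0 or 1 of 3 parathyroid and 0 or 1 of 4 adipocyte markers, and the part of such cells in the values of these genes was not tested.

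Sequences of the NKX2.1 peaks that overlapped a PAX8 peak and had any base within 5 kb of a start site of Rap1gap or Dab2ip are shown first, since these are the places near a promoter of either gene where both factors were called. Distances are from the midpoint of the peak, which can lie just beyond 5 kb. The sequences are the mm10 plus strand read 5′ to 3′. Capitals mark CAAGTG (a core of NK-2 homeodomain sites) or GTCANGC (a core of PAX paired-domain sites) on either strand, and CACTTG is the reverse complement of CAAGTG. Bases of RefSeq exons were left out of the printed runs, which shortened 2 of the Dab2ip sequences.
Rap1gap, peak 3966 bp before start 1, chr4:137660611-137660910: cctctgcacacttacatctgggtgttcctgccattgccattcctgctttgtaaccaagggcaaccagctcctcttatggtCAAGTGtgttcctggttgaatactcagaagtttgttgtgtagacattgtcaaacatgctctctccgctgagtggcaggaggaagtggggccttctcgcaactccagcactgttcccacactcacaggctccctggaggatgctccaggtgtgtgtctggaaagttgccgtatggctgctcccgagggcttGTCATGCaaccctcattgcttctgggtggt
Rap1gap, peak 3029 bp before start 1, chr4:137661548-137661847: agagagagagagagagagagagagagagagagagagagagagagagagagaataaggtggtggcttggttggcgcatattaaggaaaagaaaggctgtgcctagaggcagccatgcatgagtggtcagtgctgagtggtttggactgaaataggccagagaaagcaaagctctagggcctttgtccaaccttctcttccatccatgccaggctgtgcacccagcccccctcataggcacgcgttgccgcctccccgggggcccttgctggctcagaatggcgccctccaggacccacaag
Dab2ip, peak 1234 bp before start 1, chr2:35557075-35557374: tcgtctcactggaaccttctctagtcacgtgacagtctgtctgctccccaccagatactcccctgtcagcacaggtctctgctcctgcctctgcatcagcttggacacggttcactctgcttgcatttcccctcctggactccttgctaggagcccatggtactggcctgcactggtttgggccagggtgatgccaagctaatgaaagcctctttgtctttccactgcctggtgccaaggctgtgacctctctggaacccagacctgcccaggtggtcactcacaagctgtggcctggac
Dab2ip, peak 1296 bp before start 2, chr2:35581395-35581647: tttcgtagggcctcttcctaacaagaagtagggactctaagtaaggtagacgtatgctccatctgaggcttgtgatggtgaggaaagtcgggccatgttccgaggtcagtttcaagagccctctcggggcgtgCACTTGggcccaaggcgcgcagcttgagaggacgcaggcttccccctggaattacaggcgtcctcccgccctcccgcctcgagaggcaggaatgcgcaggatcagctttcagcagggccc
Dab2ip, peak over start 4, chr2:35691769-35691993: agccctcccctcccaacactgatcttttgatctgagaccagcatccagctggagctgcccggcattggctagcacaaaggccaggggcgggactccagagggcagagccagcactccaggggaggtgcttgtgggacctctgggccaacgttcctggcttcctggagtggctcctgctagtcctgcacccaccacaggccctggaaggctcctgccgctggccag
Dab2ip, peak 5112 bp after start 5, chr2:35701695-35701994: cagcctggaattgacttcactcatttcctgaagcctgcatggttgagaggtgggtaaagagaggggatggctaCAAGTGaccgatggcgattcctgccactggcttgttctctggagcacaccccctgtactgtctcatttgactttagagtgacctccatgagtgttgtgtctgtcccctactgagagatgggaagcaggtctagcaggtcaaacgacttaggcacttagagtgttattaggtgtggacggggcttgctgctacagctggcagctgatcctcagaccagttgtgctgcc

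Of these 6 sequences, the Rap1gap peak 3966 bp before start 1 held both motifs, and 2 Dab2ip peaks held CAAGTG alone. The Rap1gap peak 3029 bp before start 1 began with a run of ag repeats and held neither motif. Over all windows of the 8 genes, CAAGTG was in 28 of 91 NKX2.1 peaks, 30.8% (95% Wilson interval 22.2 to 40.9), against 32.4% of all NKX2.1 peaks and 13.6% of 300-base RefSeq promoters. GTCANGC was in 22 of 110 PAX8 peaks, 20% (13.6 to 28.4), against 19.8% of all PAX8 peaks and 10.7% of promoters. The members' shares lay within the counting error of those of all peaks. A match of these letters is a description and not a bound site.

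Rap1gap encodes a GAP of Rap1 (chr4:137664726-137729861, plus strand). Its window of 165.1 kb held 16 NKX2.1 peaks, or 0.0969 per kb (95% Poisson interval 0.0554 to 0.157), which was 3.87 times the density of the median gene, and 1.06% of genes were as dense. PAX8 had the same count, 16 peaks and 0.0969 per kb, 3.47 times the median gene, with 2.26% of genes as dense. These intervals cover counting error only. Of each factor 7 peaks lay in the gene body, 6 in the upstream flank and 3 in the downstream flank. All 14 peaks of the gene body were intronic, 5 of each factor in intron 1. The flanks overlap Usp48, a deubiquitinase gene, and Alpl, the tissue-nonspecific alkaline phosphatase gene, and 5 NKX2.1 and 6 PAX8 peaks lay inside one of these genes, so a peak in the window need not act on Rap1gap.

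The peaks of Rap1gap were grouped along the gene. When peaks of either factor less than 1 kb apart were chained, 5 peaks (3 NKX2.1 and 2 PAX8) fell in 2352 bp between 5.1 and 3.0 kb before start 1, at chr4:137659504-137661855. Another 5 (3 NKX2.1 and 2 PAX8) fell in 1485 bp of intron 1, 32.9 to 34.1 kb after start 1, at chr4:137697517-137699001. No other member had a chain of 5 peaks, and 141 of all 66502 chains of these lists, or 0.212%, held 5 or more. Overlapping peaks of the 2 factors count separately here. Each PAX8 peak of both Rap1gap chains overlapped an NKX2.1 peak, so each chain held 3 separate places. Sipa1l2 also had chains of 3 separate places, with 4 peaks from -0.3 to 1.4 kb and 3 peaks from 22.3 to 23.8 kb of its start 1. The chains were looked for after the peaks of Rap1gap had been seen. In the upstream group both shown sequences had their PAX8 partner peak, at -4059 and -3021 bp from start 1. None of the 16 NKX2.1 peaks and 1 of the 16 PAX8 peaks of the window overlapped an H3K4me3 region of WT-LID. The share of all peaks that did so was not counted, so whether Rap1gap differs from other genes in this is not known.

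**Figure D1:**
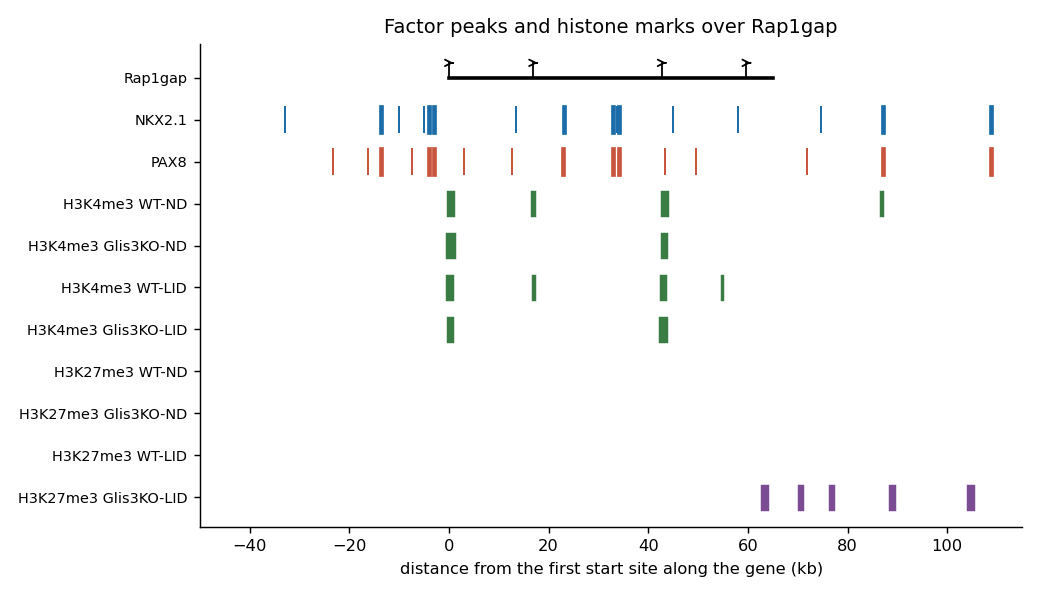
Called peaks over Rap1gap and 50 kb either side, against distance from the first start site in kb. Arrows mark the 4 start regions, thick factor lines are peaks that overlap a peak of the other factor, and boxes are histone regions in the 4 libraries. Of the 16 peaks of each factor, 6 lie before start 1 and 5 in intron 1, which are also long parts of the window. H3K4me3 covers starts 1 and 3 in all 4 libraries, and H3K27me3 appears in Glis3KO-LID alone.

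Dab2ip encodes a GAP of Ras that also serves as a scaffold for stress kinase signalling (chr2:35558458-35730994, plus strand). Its window of 272.5 kb held 20 NKX2.1 peaks, 0.0734 per kb (0.0448 to 0.113), 2.93 times the median gene, with 5.71% of genes as dense. It held 23 PAX8 peaks, 0.0844 per kb (0.0535 to 0.127), 3.03 times the median gene, with 4.97% of genes as dense. Unlike at Rap1gap, most of these peaks were in the gene body, 16 of 20 for NKX2.1 and 20 of 23 for PAX8. The gene body is also a larger part of the window, 172.5 kb here against 65.1 of 165.1 kb at Rap1gap. Per kb of gene body, Dab2ip had 0.0927 NKX2.1 and 0.116 PAX8 peaks and Rap1gap 0.107 of each factor. Intron 1 held 9 peaks of each factor and intron 3 held 4 NKX2.1 and 6 PAX8 peaks. Only Ttll11, a tubulin glutamylase gene, overlaps the window, with 2 NKX2.1 peaks and 1 PAX8 peak inside it. The Dab2ip peaks were spread out, and its largest chain held 3 peaks (1 NKX2.1 and 2 PAX8) in 1235 bp of intron 2.

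At Dab2ip 4 of 20 NKX2.1 and 4 of 23 PAX8 peaks overlapped an H3K4me3 region of WT-LID, again without a count over all peaks. A pair of overlapping peaks over coding exon 3, the NKX2.1 peak at chr2:35661443-35661742, lay in an H3K4me3 region that was called in all 4 libraries, 1639 bp wide in WT and 2104 bp in Glis3KO on the ND, and 1942 and 1785 bp on the LID. This region is 103.1 kb after start 1 and is near no curated start site of Dab2ip. The peak shown over start 4 had its midpoint 76 bp before that start, with its PAX8 partner 120 bp before it.

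**Figure D2:**
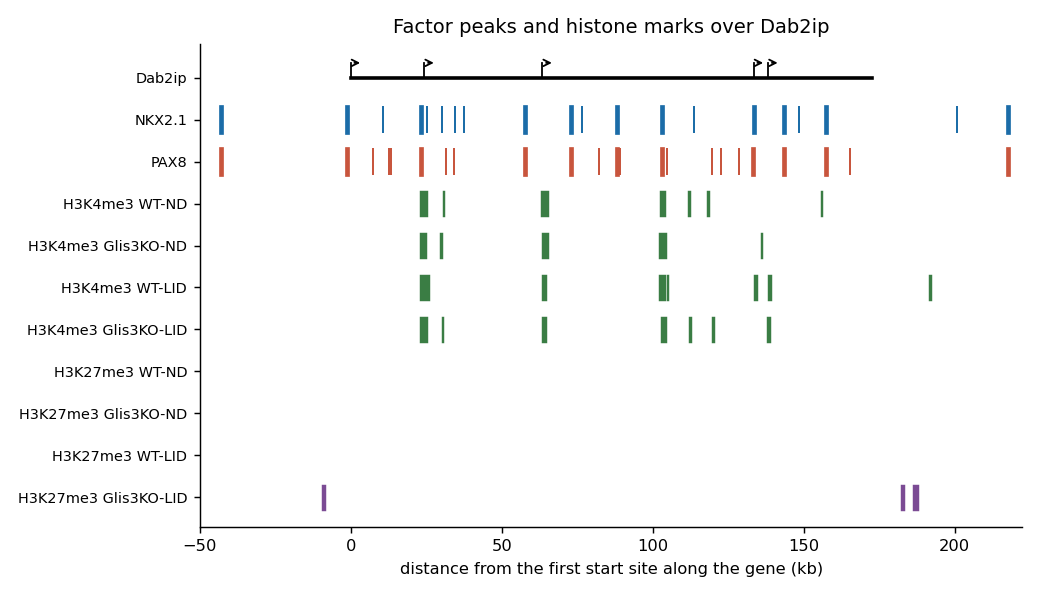
Called peaks over Dab2ip and 50 kb either side, against distance from the first start site in kb. Arrows mark the 5 start regions, thick factor lines are peaks that overlap a peak of the other factor, and boxes are histone regions. Factor peaks run through the gene body, and H3K4me3 is seen in all 4 libraries at starts 2 and 3 and near 103.1 kb.

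The other 6 genes had fewer peaks per kb. Sipa1l2, which encodes a Rap GAP of the SPA-1 family, came closest, with 14 NKX2.1 peaks (0.0556 per kb) and 20 PAX8 peaks (0.0794 per kb) in a window without another protein-coding gene. Of genes, 15.7% were as dense in NKX2.1 and 6.27% in PAX8. Sipa1, the founding member of that family, had 5 peaks of each factor (0.0444 per kb) in a window with 7 other genes, and 0 NKX2.1 peaks and 1 PAX8 peak were in its own body. Sipa1l1 had 15 NKX2.1 peaks (0.0393 per kb) and 22 PAX8 peaks (0.0576 per kb), 14 and 18 of them in the gene. Rap1gap2, the closest relative of Rap1gap, had 14 NKX2.1 (0.0427 per kb) and 13 PAX8 peaks (0.0397 per kb), 12 and 9 of them in the gene.

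Both Ras GAPs named Rasa were at the low end. Rasa1, the p120 Ras GAP, had 3 NKX2.1 (0.0172 per kb) and 4 PAX8 peaks (0.0229 per kb), and Rasa3, a GAP of Ras and Rap1, had 4 (0.019) and 7 (0.0333). All 4 NKX2.1 peaks of Rasa3 lay beyond its 3′ end. For comparison, the median gene had 0.0251 NKX2.1 and 0.0279 PAX8 peaks per kb.

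Ranked by NKX2.1 peaks per kb the order was Rap1gap, Dab2ip, Sipa1l2, Sipa1, Rap1gap2, Sipa1l1, Rasa3 and Rasa1, and by PAX8 it was Rap1gap, Dab2ip, Sipa1l2, Sipa1l1, Sipa1, Rap1gap2, Rasa3 and Rasa1. The Poisson intervals of every pair of neighbours in either order overlapped. Pooled, Rap1gap and Dab2ip had 36 NKX2.1 peaks in 437.7 kb (0.0823 per kb) and the other 6 genes 55 in 1458.8 kb (0.0377 per kb), a ratio of 2.18. For PAX8 these were 39 (0.0891 per kb) and 71 (0.0487 per kb), a ratio of 1.83. The genes were chosen for this difference, which is given without a test. None of the 8 genes reached 0.1 peaks per kb, a density that 0.738% of all genes reached for NKX2.1 and 1.78% for PAX8. This depended on the window, since with 20 kb either side Rap1gap had 0.124 peaks per kb of each factor.

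**Figure D3:**
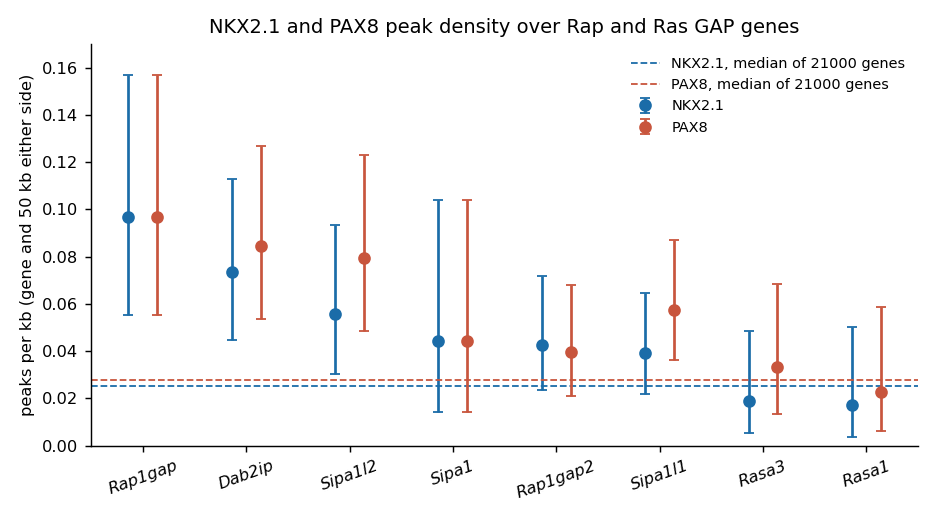
Peaks per kb over each gene and 50 kb either side for NKX2.1 and PAX8, 1 library each. Points are densities, bars are 95% Poisson intervals of counting and dashed lines are the medians of 21000 genes. Rap1gap and Dab2ip are highest, from 0.0734 to 0.0969 per kb, and Rasa1 lies under both medians.

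Within 5 kb of a start site, an NKX2.1 peak was found at 6 of the 8 genes (all but Sipa1 and Rasa3), against 35.4% of all genes, and a PAX8 peak at 7 of 8 (all but Sipa1), against 42% of all genes. A peak was counted here if any of its bases lay in this range, so the midpoint of a counted peak could lie just outside it, as for the Dab2ip peak 5112 bp after start 5, and no gene was called on such a peak alone. Genes with several start sites have more chances to be counted, and Dab2ip had 5 start regions and Rap1gap and Rap1gap2 had 4 each. Rap1gap had 6 NKX2.1 and 5 PAX8 peaks in this range, Dab2ip 5 of each, Sipa1l2 3 of each, Rap1gap2 2 and 1, and Sipa1l1 and Rasa1 1 of each. Besides start 4 of Dab2ip, both factors lay within 1 kb of start 1 of Sipa1l1 (NKX2.1 989 bp and PAX8 165 bp before it), start 3 of Rap1gap2 (988 and 935 bp before it) and start 1 of Sipa1l2 (NKX2.1 346 bp before and PAX8 838 bp after it). Rasa1 had its PAX8 peak 255 bp after the start, in exon 1.

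The factors often met at the same place. Over the 8 windows 55 pairs of NKX2.1 and PAX8 peaks overlapped, with a median distance of 38 bp between midpoints (1 to 232 bp). These were 60.4% of the members' NKX2.1 peaks (Wilson 50.2 to 69.9) and 50% of their PAX8 peaks (40.8 to 59.2), against 50.8% and 45.9% over all peaks of the lists. Both shares of the members thus lay within the counting error of those of all peaks. At Rap1gap and Dab2ip the share was 52.8% of NKX2.1 peaks (37 to 68), and at the other 6 genes it was 65.5% (52.3 to 76.6), and these intervals overlap. Rap1gap had 8 shared pairs, Dab2ip 11, Sipa1l1 12, Rap1gap2 10 and Sipa1l2 8, and the other 3 genes 2 each. Of the 55 shared NKX2.1 peaks 8 lay in an H3K4me3 region of WT-LID, as did 4 of the 36 NKX2.1 peaks without a partner. For PAX8 it was the other way, with 8 of 55 shared peaks and 10 of 55 without a partner. The share of all peaks of the lists in such regions was not counted. None of the 91 NKX2.1 and 110 PAX8 peaks overlapped an H3K27me3 region of any library. Of all peaks, 1.58% (NKX2.1) and 2.98% (PAX8) did so, and 0.382% and 1.1% without the Glis3KO-LID library.

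All 8 genes carried H3K4me3 at a start site in each of the 4 libraries, against 62.2% (WT) and 62.5% (Glis3KO) of all genes on the ND, and 63% (WT) and 60.1% (Glis3KO) on the LID. Of the 20 start regions, 12 were marked in WT and 11 in Glis3KO on the ND, and 14 and 11 on the LID. The mark was in all 4 libraries at 10 start regions, in none at 5, and in some of the libraries at the other 5. Of all 26242 start sites, not joined into start regions, 14364 had the mark in all 4 libraries, a share near that of the members. The share of all start sites marked in each single library was not counted. Sipa1, Rasa1 and Rasa3, with a single start region each, were marked throughout. At Sipa1 1222 bp were covered in WT and 1367 bp in Glis3KO on the ND, and 1214 bp in WT and 773 bp in Glis3KO on the LID, the last being lower than the other 3. At Rasa1 the values were 1224 bp (WT) and 1696 bp (Glis3KO) on the ND, and 1838 and 1717 bp on the LID. At Rasa3 they were 1340 bp (WT) and 1807 bp (Glis3KO) on the ND, and 1898 and 1706 bp on the LID. Both Rasa genes had the narrowest mark in WT-ND. Sipa1l1 and Sipa1l2 were marked at start 1 in every library (from 1632 bp to the full start window at Sipa1l1, and 1817 to 1991 bp at Sipa1l2) and at start 2 in none.

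The 5 start regions whose mark differed between libraries were all in Rap1gap, Rap1gap2 and Dab2ip. These are the genes with most start regions, 4, 4 and 5. Since every gene was marked in each library, Sipa1, Rasa1 and Rasa3, with a single start region each, could not be among them. At Rap1gap, start 1 had 1399 bp (WT) and 1551 bp (Glis3KO) on the ND, and 1219 and 1153 bp on the LID. Start 3, 42.7 kb into the gene, had 1235 bp (WT) and 1237 bp (Glis3KO) on the ND, and 1144 and 1597 bp on the LID. Start 2, 16.9 kb into the gene, was covered over 769 bp in WT-ND and 501 bp in WT-LID and not at all in either Glis3KO library. Start 4, that of a non-coding transcript, was unmarked in every library.

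Start 1 of Rap1gap2, also that of a non-coding transcript, followed the same pattern as start 2 of Rap1gap, with 1066 bp in WT-ND, 773 bp in WT-LID and 0 in both Glis3KO libraries. Over all 26242 start sites, 178 (0.678%) were marked in both WT libraries and neither Glis3KO library and 77 (0.293%) the other way round. The pattern was picked out after its values were seen. The narrowest region in the H3K4me3 lists was 501 bp, so the Rap1gap start 2 region of WT-LID was at the caller's minimum width, and a region just under the caller's limit is listed as absent. With each list cut to the length of the shortest, keeping the widest regions, start 2 of Rap1gap had 0 bp in WT-LID and the pattern was left at start 1 of Rap1gap2. The Glis3KO-LID list is also the shortest H3K4me3 list, and its part in these 0 values was not tested.

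At Dab2ip, start 1 of the longest transcript had no H3K4me3 in any library, although an NKX2.1 and a PAX8 peak lay 1234 and 1273 bp before it. Start 2, 24.4 kb into the gene, was the most fully covered, over 1993 bp (WT) and 1626 bp (Glis3KO) on the ND, and over the full start window (WT) and 1982 bp (Glis3KO) on the LID. Start 3, 63.5 kb into the gene, had 1485 bp (WT) and 1330 bp (Glis3KO) on the ND, and 1324 and 1305 bp on the LID. Start 4, 133.5 kb into the gene, was marked over 947 bp in WT-LID and in no other library, as were 195 of all start sites (0.743%). The shown NKX2.1 peak over start 4 overlapped this region. That peak is also from an LID library, but by the methods after a longer time on the diet. Start 5, 138.3 kb into the gene, was marked in the LID libraries only, over 808 bp in WT-LID and 971 bp in Glis3KO-LID, as were 98 of all start sites (0.373%). Both patterns were picked out after their values were seen, and both were lost with 5 kb either side. A Glis3KO-ND region of 501 bp at chr2:35694273-35694773 lies between starts 4 and 5 and then covered 501 bp at each. Glis3KO-LID had 529 bp at start 4, all of them part of its region at start 5, which the wider window reached. WT-ND had 0 bp at both starts at this width too.

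**Figure D4:**
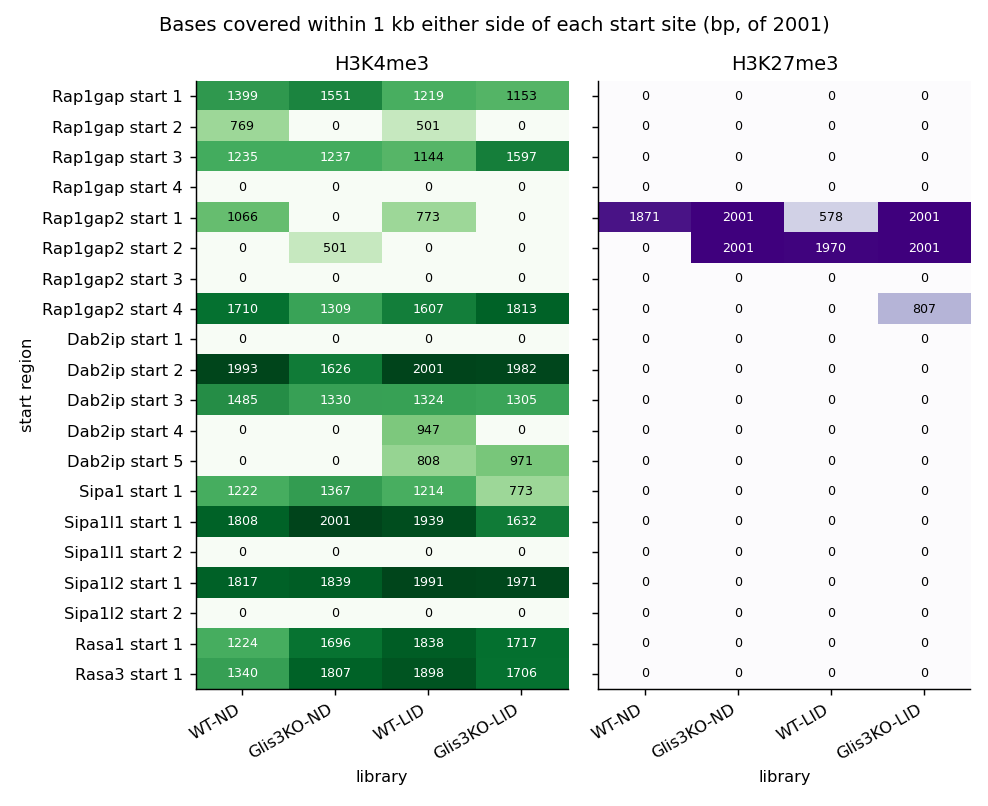
Bases covered by H3K4me3 (left) and H3K27me3 (right) within 1 kb either side of each of 20 start regions, by library (columns). Darker colour is more bases, and the number in each cell is the count. Every gene has a start region marked by H3K4me3 in all 4 libraries, and H3K27me3 is at Rap1gap2 alone.

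H3K27me3 was found at a start site of 1 of the 8 genes, Rap1gap2, in each library, against 6.44% (WT) and 8.68% (Glis3KO) of all genes on the ND, and 6.5% (WT) and 17.5% (Glis3KO) on the LID. At start 1 of Rap1gap2 the mark covered 1871 bp in WT-ND, 578 bp in WT-LID and the full start window in both Glis3KO libraries. At start 2, 20.7 kb into the gene, it covered 0 bp in WT-ND, 1970 bp in WT-LID and the full start window in both Glis3KO libraries. Start 3 had none of either mark. Start 4, 88.1 kb into the gene, had H3K4me3 in all libraries (1309 to 1813 bp) and H3K27me3 over 807 bp in Glis3KO-LID alone. Both marks were called within 1 kb of the same start site in WT-ND and WT-LID at start 1, in Glis3KO-ND at start 2, where H3K4me3 covered 501 bp, and in Glis3KO-LID at start 4. Whether the same cells carried both could not be told from whole glands. At Rasa3 a Glis3KO-LID region of 1001 bp, 1.0 to 2.0 kb after the start site, lay just outside the start window.

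Over the whole Rap1gap2 window H3K27me3 covered 5.58 kb (WT) and 12.3 kb (Glis3KO) on the ND, and 6.59 kb (WT) and 36.11 kb (Glis3KO) on the LID. The Glis3KO value was the higher one on both diets. On the ND the whole list of Glis3KO covered 13.26 Mb (4116 regions) and that of WT 7.472 Mb (3050 regions). On the LID the Glis3KO list was the one that stood apart, with 55.11 Mb against 7.502 Mb in WT. The Glis3KO lists thus covered more than the WT lists over the whole genome too. No factor peak of Rap1gap2 lay between 27.3 kb before start 1 and 50.9 kb after it, the stretch with the H3K27me3 regions of the other 3 libraries. Glis3KO-LID had further regions among the factor peaks, such as one of 1001 bp from 211.8 to 212.8 kb near an NKX2.1 peak at 214.8 kb.

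**Figure D5:**
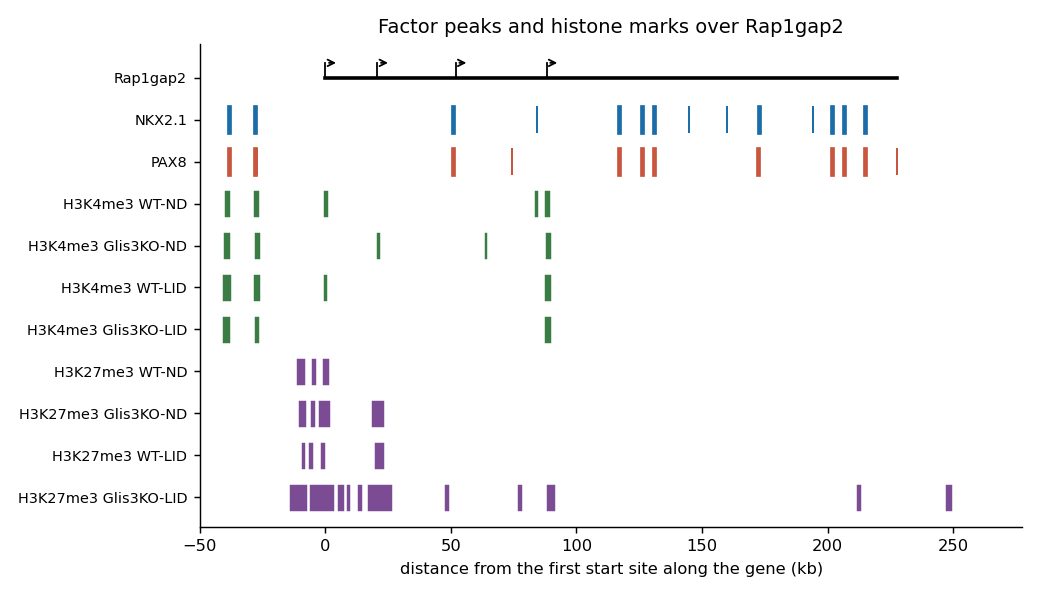
Called peaks over Rap1gap2 and 50 kb either side, against distance from the first start site in kb. Arrows mark the 4 start regions, thick factor lines are peaks that overlap a peak of the other factor, and boxes are histone regions. H3K27me3 lies around starts 1 and 2, H3K4me3 covers start 4 in all libraries, and no factor peak overlaps an H3K27me3 region. Glis3KO-LID has further H3K27me3 regions through the gene.

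Over the whole windows, 6 of the 8 genes had an H3K27me3 region in some library, against 58.2% of all genes. Without the Glis3KO-LID library 1 gene, Rap1gap2, had one, against 32.6% of all genes. In Glis3KO-LID the other 5 genes held 15 regions of 1001 to 3260 bp, 3 of which touched a gene body. They covered 5.88 kb at Rap1gap, 3.41 kb at Dab2ip, 1.79 kb at Sipa1, 4.26 kb at Sipa1l1 and 4.29 kb at Rasa3. Sipa1l2 and Rasa1 had none in any library.

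In the wider pathway, taken as 43 other genes for GAPs, GEFs, small GTPases and Rap effectors, 25 had an NKX2.1 and 31 a PAX8 peak within 5 kb of a start site, where 35.4% and 42% of all genes had one. The median density was 0.0354 NKX2.1 and 0.0414 PAX8 peaks per kb. None reached 0.1 NKX2.1 peaks per kb and 1 reached 0.1 PAX8 peaks per kb, Rapgef3, the gene for Epac1, with 14 PAX8 peaks (0.114 per kb) and 6 NKX2.1 peaks (0.0488 per kb). Of all genes, 0.738% reached this density for NKX2.1 and 1.78% for PAX8. Rapgef3 was the densest of the 43 in PAX8, and 0.619% of all genes were as dense. Of the small GTPases, 7 of 11 had an NKX2.1 and 9 of 11 a PAX8 peak within 5 kb of a start, and of the 9 other GAPs 4 had each. H3K4me3 was at a start site of 38 pathway genes in both ND libraries, 40 in WT-LID and 37 in Glis3KO-LID, against 60.1% to 63% of all genes.

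H3K27me3 was at a start site of 1 of these 43 genes in both WT libraries, 3 in Glis3KO-ND and 10 in Glis3KO-LID, where all genes had 6.44% (WT-ND), 6.5% (WT-LID), 8.68% and 17.5%. The Ras exchange factor gene Rasgrf1 was covered over the full start window in every library. Rasal1, a Ras GAP gene, had 1472 bp on the ND and 1954 bp on the LID in Glis3KO, and Rapgef4, the gene for Epac2, had 1267 and 1223 bp in these libraries, both with 0 bp in the WT libraries. At both genes H3K4me3 was listed in the other 3 libraries and at 0 in Glis3KO-LID. The exchange factor genes Rasgrp1, Rasgrp2 and Rasgrp4 and the Rap effector genes Rassf5, Apbb1ip, Radil and Rgl1 were marked in Glis3KO-LID alone, Rgl1 over 4 bp. Without that library the pathway genes with H3K27me3 were Rasgrf1, Rasal1 and Rapgef4.

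The genes most like Rap1gap in peaks per kb of both factors, by distance on a log2 scale among 20237 genes with a window of similar length, were Tnnc1, Ggt6, Tusc2, Cks1b and Hyal2, each with 10 NKX2.1 and 10 PAX8 peaks in 102.8 to 103.6 kb. Those most like Dab2ip, among 5891 genes, were Chsy1, Fam120a, Sufu, Pxdn and Zc3h7b, with 11 to 14 NKX2.1 and 13 to 16 PAX8 peaks. The first set differed in H3K4me3 of WT-LID, from 0 bp at Ggt6 to the full start window at Cks1b and Hyal2. Tusc2 and Hyal2 are neighbouring genes whose windows share peaks. Each likeness rests on 1 library per factor.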

How the data were processed

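Peak calls from 10 mouse ChIP-seq libraries were analysed. Per the study's methods and the submitters' processing notes, adapters were removed with cutadapt 1.12, reads were mapped to mm10 with Bowtie 1.2 (uniquely mapped hits), duplicates were removed with Picard 1.110, and peaks were called with HOMER 4.10.3, those of factors against an input and those of histone marks as broad regions. The sources used here do not state an input for the histone regions, and bedtools 2.24.0 was also named. Both factor lists were longer than the peak numbers in the paper, and the reason is not known here. The deposited lists give chromosome, start, end and name of each peak, with no score, fold or read count, so the depth of each library is unknown, and a longer list may come from a deeper library.

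Coordinates were counted from 1. Genes and start sites were taken from curated RefSeq transcripts (GRCm38, which is mm10), with predicted models as an alternative. Peaks were assigned by midpoint to the gene and 50 kb either side and called shared at an overlap of at least 1 bp. Intervals are 95% Poisson (densities) or Wilson (shares) and cover counting error only. With 1 library per group there is no replicate and no test was run. Python 3.11.15, pandas 2.3.3, scipy 1.17.1 and pysam 0.24.0 were used, and the counters were tested on simulated peaks. The members, the pathway and marker lists, the windows and the motifs were chosen with earlier results of these data known. Besides the 8 genes, the text names pathway genes with at least 0.1 peaks per kb or H3K27me3 at a start site, and the 5 genes nearest to Rap1gap and to Dab2ip in log2 peaks per kb (offset 0.01) with windows of 0.5 to 2 times the length. The 3 rat lists and the 2 unified histone lists were not used here.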

Additional observations from a re-analysis of the deposited data

Results flagged for a closer look

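At 7 of the 10 start regions with H3K4me3 in all 4 libraries, the covered bases were higher in Glis3KO than in WT on one diet and lower on the other. The change of the Glis3KO minus WT difference from the ND to the LID was -218 bp at Rap1gap start 1, 607 bp at Rap1gap2 start 4, -586 bp at Sipa1, -500 bp at Sipa1l1 start 1, -42 bp at Sipa1l2 start 1, -593 bp at Rasa1 and -659 bp at Rasa3. At 6 of these 7 the Glis3KO value was the higher one on the ND and the lower one on the LID. Each value is from 1 library, and the difference was not tested. Of all 14364 start sites with H3K4me3 in the 4 libraries, 43% had such opposite signs, 29.4% higher on the ND and lower on the LID and 13.6% the reverse. The Glis3KO-LID list was the shortest H3K4me3 list, with 22.56 Mb covered against 25.44 to 26.73 Mb in the others.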

How the results depend on the processing

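No paired analysis was possible because each group was 1 library. No list could be cut at a stricter score, since none was given, and the histone lists were instead cut to the length of the shortest list of the same mark by keeping the widest regions, and no library could be left out as a replicate. The pooled density ratios of Rap1gap and Dab2ip over the other 6 genes ran from 1.88 to 2.98 for NKX2.1 and from 1.57 to 2.37 for PAX8 over the 7 alternatives, lowest with 100 kb either side and highest with only peaks nearest to the gene's own start site. Rap1gap had 0.107 peaks of each factor per kb in the gene body alone and 0.124 with 20 kb either side, and Dab2ip had 0.116 PAX8 peaks per kb in the gene body. With peaks of 1 factor within 1 kb merged, Dab2ip ranked before Rap1gap in NKX2.1, and in the gene body alone it did so in PAX8. For H3K27me3 in Glis3KO-LID, widening the window to 5 kb either side raised the marked genes from 1 to 3 and the marked start regions from 3 to 6. The genes added were Rap1gap and Rasa3. With lists of equal length the start regions with H3K27me3 in Glis3KO-LID went from 3 to 2 and those with H3K4me3 in WT-LID from 14 to 13, the one lost being start 2 of Rap1gap. With 5 kb either side the start regions with H3K4me3 went from 11 to 13 in Glis3KO-ND, from 14 to 15 in WT-LID and from 11 to 12 in Glis3KO-LID. Alternatives chosen after seeing the data bore on the 6 genes with an H3K27me3 region in their window, which became 1 without the Glis3KO-LID library and 1 with lists of equal length. Of the other alternatives for single genes, 4 rank changes aside, 8 moved a density beyond its counting interval, all lower and at Rap1gap2, Sipa1 or Rasa3, with the gene body alone or with only peaks nearest to the gene's own start site.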
